A study of Homo sapiens with 6 samples.

Results

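The genes described here build the clathrin coat that carries the transferrin receptor into the cell. They are the clathrin heavy chain CLTC, the light chains CLTA and CLTB, the subunits AP2A1, AP2A2, AP2B1, AP2M1 and AP2S1 of the adaptor complex AP2, the adaptor PICALM and the scission GTPase DNM2. The list was set by gene function, and a row of the deposited table belonged to it when its RefSeq protein accession belonged to 1 of these genes. This gave 10 of the 19049 genes named in the table and 69 of its 109018 rows.

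RNA-seq was performed on 6 libraries of K562, a human BCR-ABL-positive chronic myeloid leukemia cell line. In 3 independent groups the cells expressed a short hairpin RNA against a long non-coding RNA, which the sample labels call lncRNA-IIRX and the study calls lncRNA-IUR-5 (sh-IUR-5, n = 3 libraries). Control cells expressed a hairpin against luciferase (sh-luc, n = 3 libraries). Both hairpins were carried by the same lentiviral vector, pSIH-H1-GFP, and each group rests on 1 hairpin sequence, so an effect of the target and an effect of that hairpin cannot be told apart. The labels name no drug treatment for either group. The rows of the table are protein accessions, and the level of lncRNA-IUR-5 itself was not analysed here.

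Clathrin is a complex of leg-shaped heavy chains, each carrying a light chain, and the legs interlock into a cage on the inner face of the plasma membrane. AP2 links that cage to the membrane and to cargo. Its alpha and sigma subunits form a pocket for one class of sorting signals, its mu subunit reads tyrosine-based signals, and its beta subunit recruits clathrin. PICALM binds membrane lipids and clathrin and shapes the bud, and dynamin cuts the neck of the coated pit. Iron-loaded transferrin bound to its receptor, TFRC or CD71, is the classical cargo of this route, and erythroid cells depend on it for the iron of heme.

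The target site of the hairpin and several sequences of this route are shown first. The hairpin of the sh-IUR-5 cells was directed at the following site, which matched 1 position of chromosome 11 in hg38, chr11:95232933-95232953 on the plus strand, 9.16 Mb from PICALM on the same chromosome.

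sh-IUR-5 target: GCTAGTATCAGGTTTAAATAG

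The signal that AP2 reads in the transferrin receptor lies in the part of TFRC that encodes its cytoplasmic tail. Codons 13 to 33 are given here from hg38, chr3:196075298-196075360 on the minus strand, within 1 coding exon, with codons 20 to 23 of the tyrosine signal in capitals.

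TFRC: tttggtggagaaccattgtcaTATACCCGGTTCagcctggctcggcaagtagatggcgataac

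The light chain genes each have a 54-base coding exon that the long isoform holds and the short isoform skips, and these inserts are known mainly from neurons. That of CLTA is at chr9:36209267-36209320 on the plus strand and that of CLTB at chr5:176396479-176396532 on the minus strand. Aligned base by base without gaps, they were identical at 35 of 54 bases (64.8%), which are in capitals.

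CLTA: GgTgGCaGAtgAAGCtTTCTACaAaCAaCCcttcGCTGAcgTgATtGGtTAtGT
CLTB: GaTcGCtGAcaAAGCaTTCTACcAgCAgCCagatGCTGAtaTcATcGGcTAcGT

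The long CLTA isoform holds a further 36-base exon, so its coding length is 747 bases against 657 for the short one. For CLTB the coding lengths are 690 and 636 bases.

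The libraries held 21023739 to 23320543 reads in sh-luc and 24325122 to 31481109 in sh-IUR-5. Levels below are reads summed over all rows of a gene, divided by the length of its longest row and by the library's TMM-scaled total (TMM-scaled RPKM). TMM is edgeR's scaling factor, which sets most genes to no change, and it was 0.931 to 0.946 in sh-luc and 1.05 to 1.10 in sh-IUR-5. Without these factors the median log2 fold change over all features tested moved from 0.0048 to 0.19. By their labels, libraries 2 and 3 of a group were numbered within the same series, and library 1 within another. Library 1 stood apart, with a chi-square per gene of 5.92 to 11.2 against the other libraries of its group, where libraries 2 and 3 gave 2.32 to 3.23. K562 markers were present and not all at the same level in both groups. Of 12 erythroid and megakaryocytic markers 11 were tested. TAL1 rose and 6 fell (GATA1, NFE2 and the globin genes HBG1, HBG2, HBE1 and HBZ). The summed level of the list was 21562 to 24345 in sh-luc and 15352 to 16177 in sh-IUR-5. HBG1 alone averaged 8607 in sh-luc and 5895 in sh-IUR-5, against 58.5 and 46.2 for GATA1, so the sum says little about the lower markers. No marker of T cells, B cells or monocytes reached the minimum for testing, and the summed level of each of these lists stayed at or below 1.55 in all libraries. Of the epithelial and fibroblast list only EPCAM was tested, at 97.5 in sh-luc and 97.4 in sh-IUR-5. The part of these markers in the results below was not tested.

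All 10 genes passed the minimum of 1 row with a mean RPKM of 1 and were tested among 20714 features with edgeR's quasi-likelihood test, adjusted over all of them. CLTC, AP2B1, DNM2 and PICALM rose in sh-IUR-5, CLTA, CLTB and AP2S1 fell, and AP2A1, AP2A2 and AP2M1 did not pass the threshold of 0.05. Of all features tested, 20.9% were called higher and 20.0% lower, and of the 8942 named genes among them 26.0% and 24.3%. The 4 and 3 of 10 genes thus stand against a background in which many genes were called. The same 4 and 3 genes had levels that did not overlap between groups, which held for 26.1% (higher) and 25.3% (lower) of all features. The median log2 fold change of the 10 genes was 0.039 (0.0048 over all features). In bulk RNA, more cells with a transcript and more of it per cell cannot be told apart.

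The heavy chain CLTC forms the legs of the cage. Its gene lies at chr17:59619684-59696956 on the plus strand (GENCODE annotation of hg38, as for all genes below), and its 2 rows have a longest coding length of 5040 bases. The level was 41.1, 47.2 and 43.2 in sh-luc libraries 1 to 3 and 72.4, 69.9 and 73.1 in sh-IUR-5 libraries 1 to 3. Every sh-IUR-5 library lay well above every sh-luc library. CLTC rose from 43.8 ± 3.10 to 71.8 ± 1.69 (SD, n = 3 each), a gain of 63.8% and a log2 fold change of 0.71 ± 0.07 (SE, adjusted p = 4.9e-06). The exact two-sided permutation test gave p = 0.1 for CLTC, the smallest that 3 against 3 libraries allow, and the same value for the other 6 called genes. The rise was seen in both label series, with a log2 difference of 0.82 between the libraries numbered 1 and 0.66 between the means of the libraries of the second series. These levels rest on 4325 to 4725 reads in sh-luc and 8973 to 12606 in sh-IUR-5.

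The light chains bind along the heavy chain legs and regulate cage assembly. CLTB (chr5:176392501-176416539, minus strand) measured 82.8, 79.2 and 82.5 in sh-luc and 53.5, 55.1 and 48.6 in sh-IUR-5. Its groups were far apart, with the highest sh-IUR-5 library below the lowest sh-luc library. CLTB fell from 81.5 ± 2.02 to 52.4 ± 3.35, a log2 fold change of -0.64 ± 0.08 (adjusted p = 2.5e-05), and by the same size in both label series (-0.63 and -0.64).

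CLTA (chr9:36190856-36304781, plus strand) was the most abundant gene of the route in both groups. It measured 347, 310.5 and 304 in sh-luc and 289, 276 and 266 in sh-IUR-5. The groups did not overlap, but the gap between them was smaller than the spread of the sh-luc libraries. CLTA fell from 321 ± 23.3 to 277 ± 11.3 with a log2 fold change of -0.21 ± 0.07 (adjusted p = 0.0319). This call was lost in 11 of 20 alternatives. It was lost without sh-luc library 1 (-0.15, adjusted p = 0.145), without sh-luc library 2 (-0.23, adjusted p = 0.0511), without sh-IUR-5 library 2 (-0.21, adjusted p = 0.0895) and without sh-IUR-5 library 3 (-0.19, adjusted p = 0.125). With scaling to total reads the value was -0.025 (adjusted p = 0.803).

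Ratios within a library do not depend on the scaling between libraries. They do carry a library's trends on length and GC content, which are described below. CLTC has a longest row of 5040 bases and a GC content of 42.2%. CLTA has 747 bases and 56.2%, and CLTB 690 bases and 61.1%. With those trends removed the log2 fold changes were 0.41 for CLTC, -0.036 for CLTA and -0.44 for CLTB. No ratio with the trends removed is given here. The ratio of heavy chain to summed light chain level was 0.0956, 0.121 and 0.112 in sh-luc and 0.212, 0.211 and 0.232 in sh-IUR-5. Its mean went from 0.109 ± 0.0129 to 0.218 ± 0.0119, a log2 difference of 1.00 ± 0.11 (SE). The ratio of CLTA to CLTB was 3.93 ± 0.254 in sh-luc and 5.29 ± 0.250 in sh-IUR-5, a log2 difference of 0.43 ± 0.07. For both ratios the groups did not overlap and the exact permutation test gave p = 0.1, or 0.125 adjusted over the 5 ratios computed. These are ratios of RNA read density, not of chains in the cage.

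The AP2 subunits did not move as one. AP2 is a tetramer of an alpha chain, a beta chain, a mu chain and a sigma chain, and alpha is encoded by AP2A1 or AP2A2. AP2B1, the beta chain (chr17:35578046-35726413, plus strand), measured 34.1, 35.2 and 35.7 in sh-luc and 50.5, 48.2 and 50.6 in sh-IUR-5. The libraries of each group lay close together and the groups far apart. AP2B1 rose from 35.0 ± 0.800 to 49.8 ± 1.39, a log2 fold change of 0.51 ± 0.07 (adjusted p = 4.79e-05), with 0.57 in the first label series and 0.48 in the second.

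AP2S1, the sigma chain (chr19:46838136-46850846, minus strand), measured 228, 218 and 225 in sh-luc and 160.3, 174 and 159 in sh-IUR-5. All sh-IUR-5 libraries were lower. AP2S1 fell from 224 ± 4.97 to 164 ± 8.35, a log2 fold change of -0.45 ± 0.07 (adjusted p = 0.000203), with -0.51 and -0.42 in the label series.

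AP2M1, the mu chain that holds the binding site for the receptor signal shown above (chr3:184174689-184184214, plus strand), measured 164, 162 and 168 in sh-luc and 169, 163 and 158 in sh-IUR-5. These values overlapped, with means of 164 ± 3.13 and 163 ± 5.65, a log2 fold change of -0.010 ± 0.066 (adjusted p = 0.916). With scaling to total reads the AP2M1 value turned positive and passed the threshold (0.18, adjusted p = 0.0375).

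The alpha chains also overlapped between groups. AP2A1 (chr19:49767001-49807114, plus strand) measured 70.2, 60.8 and 70.0 in sh-luc and 73.9, 64.1 and 62.4 in sh-IUR-5, a log2 fold change of -0.0030 ± 0.084 (adjusted p = 0.981). AP2A2 (chr11:924881-1012245, plus strand) was the lowest gene of the route, at 17.2, 13.4 and 13.1 in sh-luc and 18.6, 14.1 and 13.6 in sh-IUR-5, a log2 fold change of 0.081 ± 0.125 (adjusted p = 0.633). In AP2A2, library 1 of each group was higher than the other 2 libraries of its group. The ratio of AP2A1 to AP2A2 was 4.64 ± 0.630 in sh-luc and 4.38 ± 0.342 in sh-IUR-5, with overlapping groups (log2 difference -0.080 ± 0.130, exact permutation p = 0.6).

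PICALM, the lipid-binding clathrin adaptor (chr11:85957175-86069882, minus strand), had the largest fold change of the 10 genes, within its standard error of that of CLTC. It measured 41.5, 39.9 and 35.6 in sh-luc and 75.7, 61.5 and 64.5 in sh-IUR-5. The lowest sh-IUR-5 library was above the highest sh-luc library, and sh-IUR-5 library 1 was the highest of all. PICALM rose from 39.0 ± 3.04 to 67.2 ± 7.47, a gain of 72.3% and a log2 fold change of 0.79 ± 0.09 (adjusted p = 1.35e-05), with 0.87 and 0.74 in the label series. Set against the mean level of the 5 AP2 genes in the same library, PICALM went from 0.387 ± 0.0333 to 0.731 ± 0.0685, a log2 difference of 0.92 ± 0.11 (exact permutation p = 0.1, adjusted 0.125). Taken from reads not divided by row length, that difference was 0.76.

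DNM2, the ubiquitous dynamin (chr19:10718055-10833488, plus strand), measured 41.5, 39.3 and 40.7 in sh-luc and 50.6, 44.8 and 45.5 in sh-IUR-5. The groups did not overlap, and the sh-IUR-5 libraries 2 and 3 lay close above the sh-luc range. DNM2 rose from 40.5 ± 1.12 to 47.0 ± 3.16, a log2 fold change of 0.22 ± 0.07 (adjusted p = 0.029). The call was lost in 6 of 20 alternatives, among them without sh-luc library 2 (0.19, adjusted p = 0.101), without sh-luc library 3 (0.22, adjusted p = 0.0762), without sh-IUR-5 library 1 (0.16, adjusted p = 0.0665) and without sh-IUR-5 library 3 (0.24, adjusted p = 0.0514). The ratio of DNM2 to CLTC went from 0.928 ± 0.0896 to 0.655 ± 0.0395, a log2 difference of -0.50 ± 0.10 with groups that did not overlap (exact permutation p = 0.1, adjusted 0.125).

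Ordered by level in sh-luc, the genes ran CLTA, AP2S1, AP2M1, CLTB, AP2A1, CLTC, DNM2, PICALM, AP2B1 and AP2A2. Neighbours from CLTC to AP2B1 overlapped, and all other neighbours were separated in all 3 libraries. In sh-IUR-5 the order was CLTA, AP2S1, AP2M1, CLTC, PICALM, AP2A1, CLTB, AP2B1, DNM2 and AP2A2. There AP2S1 overlapped AP2M1, CLTC overlapped PICALM, PICALM overlapped AP2A1, CLTB overlapped AP2B1 and AP2B1 overlapped DNM2. CLTC thus stood at place 6 in sh-luc and at place 4 in sh-IUR-5, and CLTB at places 4 and 7. With the RPKM of all rows of a gene added up in place of reads per longest row, DNM2 and PICALM changed places in sh-luc and CLTC and PICALM in sh-IUR-5.

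TFRC, the cargo, had a larger fold change than any of the 10 genes. It measured 65.1, 65.6 and 61.4 in sh-luc and 154, 128 and 138 in sh-IUR-5, a log2 fold change of 1.13 ± 0.08 (adjusted p = 2.01e-06). TFR2, the second transferrin receptor of the erythroid lineage, had a log2 fold change of -0.087 ± 0.092 (adjusted p = 0.474). Among the reference genes, ACTB measured 0.031 ± 0.067 (adjusted p = 0.742) and GAPDH -0.17 ± 0.06 (adjusted p = 0.0445), and the GAPDH value turned to 0.014 (adjusted p = 0.840) with scaling to total reads.

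**Figure D1:**
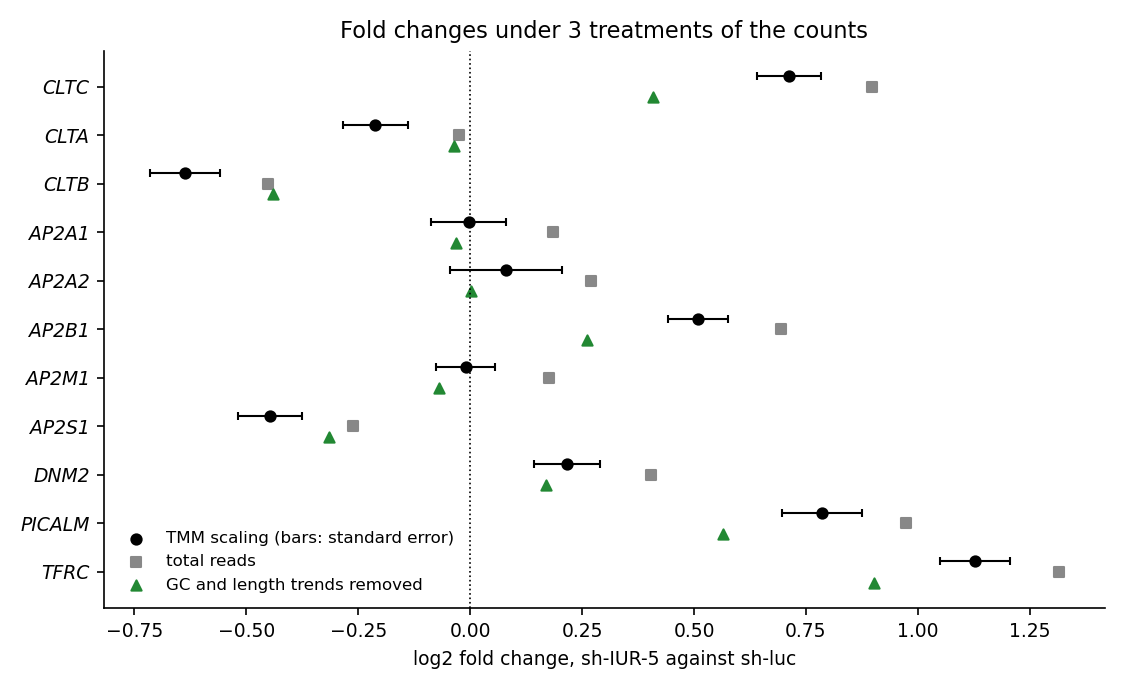
Log2 fold change of sh-IUR-5 against sh-luc for the 10 genes and TFRC under TMM scaling (black, with standard errors), scaling to total reads (grey) and after removal of trends on GC content and length (green). Scaling to total reads moves every gene to the right by about the same amount, which takes CLTA close to 0 and AP2M1 to 0.18, and removal of the trends takes CLTC from 0.71 to 0.41.

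The isoform rows of a gene are not treated as independent, since rows that share sequence can draw on the same reads. Rows of the same gene and the same length never held identical reads. They were close in the 3 AP2B1 rows of 2952 bases (1718 to 1737 reads over 6 libraries). They lay further apart in the 2 AP2S1 rows of 477 bases (1294 and 2428) and the 2 PICALM rows of 1794 bases (681 and 1109). How shared reads were assigned to rows is not given in the sources used here. Of the 69 rows, all were tested among 38204, and 33 were called higher and 12 lower, beside 19.2% higher and 18.1% lower over all rows. Rows of one gene moved the same way wherever they were called. Both CLTC rows rose (0.68 to 0.72), as did all 19 PICALM rows (0.60 to 0.91) and all 11 AP2B1 rows (0.32 to 0.65). All 7 AP2S1 rows fell (-0.59 to -0.35), as did both CLTB rows (-0.67 and -0.62).

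The weaker calls were weaker in the rows too. All 12 CLTA rows had negative values (-0.43 to -0.11), and 3 passed the threshold. The 5 DNM2 rows had values of 0.19 to 0.23, and 1 passed. None of the 4 AP2A1, 4 AP2A2 and 3 AP2M1 rows passed, and the widest spread was in AP2A2 (0.0073 to 0.38). The rows called lower numbered 7 with scaling to total reads and 19 with the label series in the model.

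The share of a gene's reads on its row with the most reads was compared for all 10 genes. The groups overlapped for 7 of them and not for AP2S1, AP2M1 and CLTA. How often such shares did not overlap over all genes with several rows was not computed, so this count has no background to be read against. AP2S1 held 21.6%, 21.8% and 21.97% of its reads on that row in sh-luc and 22.5%, 24.1% and 23.2% in sh-IUR-5. AP2M1 held 35.7% ± 0.449 in sh-luc and 34.4% ± 0.516 in sh-IUR-5. The exact permutation test gave p = 0.1 for each of these 3 genes (0.333 adjusted over the 10 genes), and since 0.1 is the smallest p of 3 against 3 libraries, the test could not pass the threshold in either direction. For CLTB the short isoform of 636 bases held 57.6% ± 1.77 of the reads in sh-luc and 58.4% ± 1.54 in sh-IUR-5. For CLTA the short isoform of 657 bases, the row with the most reads of 12, held 15.9% ± 0.251 and 16.5% ± 0.587, with the highest sh-luc library at 16.05% and the lowest sh-IUR-5 library at 16.10%. Since it is not known how reads from shared exons were assigned to rows, these shares do not measure how often the 54-base exons shown above were spliced in.

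The rest of the pathway was read from 4 lists of 121 genes in all, of which 82 were tested, 34 were called higher and 6 lower, with a median log2 fold change of 0.21. With the minimum of 1 RPKM set on summed reads in place of single rows, 103 were tested, with 41 higher and 6 lower. Among all named genes tested, 26.0% were called higher and 24.3% lower. Leaving out 1 library at a time gave 30 to 32 higher and 3 to 5 lower. The split depended on scaling, since with total reads 53 of the 82 were called higher and 2 lower. With that scaling 7412 of all 20714 features were called higher and 2053 lower.

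Of 31 accessory proteins of the coated pit, 14 were tested, 4 rose and 1 fell (median 0.078). EPS15, a scaffold at the rim of the pit, went from 7.83 ± 0.135 to 13.8 ± 1.81 (log2 fold change 0.82 ± 0.10, adjusted p = 1.99e-05). FCHO2, which nucleates pits and activates AP2, rose by 0.79 ± 0.10, and NECAP1, an AP2-binding regulator, by 0.78 ± 0.14. AAK1, the kinase that phosphorylates the mu chain of AP2, fell by 0.65 ± 0.13 on the log2 scale (adjusted p = 0.00147), from 2.38, 2.72 and 2.02 in sh-luc to 1.45, 1.496 and 1.61 in sh-IUR-5.

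Of 24 genes of membrane bending, scission and uncoating, 14 were tested, 6 rose and 1 fell (median 0.22). DNAJC6, the auxilin that recruits HSC70 to strip clathrin from vesicles, measured 14.0, 12.8 and 12.8 in sh-luc and 28.1, 23.6 and 25.1 in sh-IUR-5 (log2 fold change 0.95 ± 0.09, adjusted p = 2.62e-06). FNBP1L, an F-BAR protein, rose by 0.82 ± 0.11, and SNX18, a BAR-domain sorting nexin, by 0.74 ± 0.16. PACSIN3, another F-BAR protein, fell by 0.48 ± 0.09 (adjusted p = 0.000601).

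Of 29 genes of other clathrin coats and adaptor complexes, 24 were tested, 11 rose and 2 fell (median 0.18). AP1G1, the gamma chain of the AP1 complex of the trans-Golgi network and endosomes, measured 11.1, 11.99 and 12.95 in sh-luc and 26.1, 22.4 and 25.1 in sh-IUR-5 (log2 fold change 1.03 ± 0.09, adjusted p = 2.1e-06). AP1AR, a regulator of AP1, rose by 0.86 ± 0.20, and AP3M1, the mu chain of AP3, by 0.82 ± 0.08. The sigma chains AP4S1 and AP1S1 fell by 0.40 ± 0.10 and 0.19 ± 0.07. With scaling to total reads AP4S1 was at -0.21 and its call was lost (adjusted p = 0.102), as it was in both limma fits on RPKM (-0.20 in each, adjusted p = 0.0619 and 0.061). The AP1S1 call (adjusted p = 0.0469) was lost whichever library was left out (adjusted p = 0.0677 to 0.119), and its value was 0.038 with the trends on GC content and length removed.

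Of 37 genes of early and recycling endosomes, 30 were tested, 13 rose and 2 fell (median 0.25). STAM, an endosomal sorting protein, rose by 0.72 ± 0.08, and the GTPases RAB5A and RAB5B of the early endosome by 0.67 ± 0.08 and 0.61 ± 0.14. RAB4A, a GTPase of fast recycling, fell by 0.24 ± 0.09, and VPS29, a retromer subunit, by 0.21 ± 0.08. The RAB4A and VPS29 calls (adjusted p = 0.0385 and 0.0396) were lost when any 1 library other than sh-luc library 3 was left out, with values of -0.30 to -0.19 for RAB4A (adjusted p = 0.0262 to 0.128) and -0.24 to -0.17 for VPS29 (adjusted p = 0.0498 to 0.149) over the 6 fits.

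The pattern of CLTC over the 6 libraries was compared with that of 5796 named genes with a mean RPKM of at least 10, among 7601 features, by the root mean square difference of log2 levels after each gene's mean was subtracted. The closest were STAM (0.011), RAD21, a cohesin subunit (0.024), and MOB1A, a Hippo pathway kinase activator (0.027). STAM, which also belongs to the endosome list, measured 22.6, 25.4 and 23.7 in sh-luc and 39.9, 38.3 and 39.7 in sh-IUR-5. Its order of libraries within sh-luc was that of CLTC, with library 2 highest and library 1 lowest. Within sh-IUR-5 library 2 was lowest in both genes, but the highest was library 1 in STAM and library 3 in CLTC. STAM was picked by its likeness over these same libraries, so a shared order is no separate result.

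Fold changes across all named genes ran with the length and GC content of the coding sequence, and the clathrin route genes lie along both. With the named genes split into 5 groups of about equal size by their longest row, the median log2 fold change was -0.21, -0.077, 0.021, 0.091 and 0.17 from shortest to longest. With the same split by GC content it was 0.14, 0.13, -0.00014, -0.082 and -0.13 from lowest to highest. AP2S1, CLTB and CLTA have the shortest rows of the 10 (519, 690 and 747 bases), and PICALM, CLTC and AP2B1 the lowest GC content (42.3%, 42.2% and 46.4%). Over the 10 genes Spearman's rho was 0.72 with length and -0.56 with GC content, and over 8832 named genes 0.31 and -0.26. Genes of one library share its depth and preparation, so these are descriptions without a test.

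Each library's trends on length and GC content were then removed, with length taken as the mean over a gene's rows, not the longest row. After that CLTC (0.41), PICALM (0.57), AP2B1 (0.26), DNM2 (0.17), CLTB (-0.44) and AP2S1 (-0.32) were past the threshold, as was TFRC (0.90). CLTA was not (-0.036, adjusted p = 0.647). Each of these 7 values was nearer to 0 than under TMM scaling alone. Of the 82 pathway genes, 38 were called higher and 9 lower after that removal, against 37 and 6 in a fit of the same genes without it. Of all 8832 named genes in these fits, 2039 were called higher and 2230 lower after the removal, against 2341 and 2051 without it. Whether the trends come from the cells or from library preparation was not tested.

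Promoters were read from RefSeq (GRCh38.p14), as the 300-base window that spans each annotated start and lies mostly before it, for all 10 genes and TFRC. The motif of STAT factors, TTCNNNGAA, was looked for because STAT5 is the factor the study links to TFRC. It stood in 7.66% of 35116 promoters and in none of these windows on either strand, and the GATA motif AGATAA stood in 10.3% and likewise in none. The E-box CACGTG, held by 7.26% of promoters, stood in 1 gene, PICALM, with 2 matches in one of its windows (chr11:86069035-86069334, minus strand). They are at 232 and 48 bases before the start, and 30 bases around each are shown with the motif in capitals, from chr11:86069299-86069328 and chr11:86069115-86069144.

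PICALM 232 bases before the start: ggcagggagagtCACGTGatgcgccggctg
PICALM 48 bases before the start: cggtgtccgagtCACGTGacccggggcagc

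CCAAT, in 34.6% of promoters on either strand, stood in CLTA, PICALM, DNM2, AP2S1 and AP2A1, which rose, fell or were not called. A match of letters is not evidence that a factor binds there. Its absence from these short windows is not evidence that a factor does not act on the gene.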

How the data were processed

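RNA-seq libraries from 3 sh-luc and 3 sh-IUR-5 groups of K562 cells were grouped by the sample labels. The authors' processing notes name CASAVA 1.8, Trimmomatic 0.32, Bowtie2 2.1.0 and SAMtools 0.1.19 with hg38. The authors trimmed adaptors, masked poor sequence and mapped reads. They deposited read counts per RefSeq protein accession, not normalized, and RPKM, which equals reads scaled to row length and to total reads. The release and the rule for shared reads are not given in the sources used here. A deposited table of the authors' own comparison (pooled counts and RPKM, fold, p-value and q-value) was not used. Lists and genes were chosen with earlier results of these data known.

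Accessions were matched to gene symbols with the RefSeq gene list (64.7% of rows). Reads were summed per gene, unmatched rows were kept as single features, and features with at least 1 row of mean RPKM 1 were fitted with edgeR 4.0.16 (R 4.3.3), TMM scaling, the quasi-likelihood test and Benjamini-Hochberg adjustment over all features (threshold 0.05, two-sided). Rows were fitted likewise. The standard error of a log2 fold change in these fits was derived from the statistic of the quasi-likelihood test, not estimated separately. For ratios and shares the exact permutation test was two-sided. A count of 0 allows a level of up to 0.143 RPKM for a 1 kb row (3 reads), for counting error only, and p-values measure the spread between these libraries. The scripts were tested on simulated data.

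Named genes are the 10 clathrin route genes, TFRC, ACTB, GAPDH, up to 3 risers and 3 fallers per list that passed the threshold and moved the same way in all same-numbered pairs, and the 3 genes closest to CLTC. TFR2, TAL1, GATA1, NFE2, EPCAM and the globin genes come from the fixed lists, and the result for 1 marker gene is not reported here. Alternatives were a replicate block, the label series, each library left out, DESeq2 1.42.0 and its size factors, total reads, other minimums, the row with the most reads, limma 3.58.1 on log2(RPKM + 0.1) and log2(RPKM + 1), and trends on GC content and length removed with mgcv 1.9.3. The minimum on summed reads and the fit of genes with a GC content without trend removal were added after seeing the data.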

Additional observations from a re-analysis of the deposited data

How the results depend on the processing

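The rises of CLTC, AP2B1, PICALM and TFRC and the falls of CLTB and AP2S1 kept their direction and stayed past the threshold in each alternative that could be fitted, 20 for each gene and 19 for AP2B1 and PICALM, whose rows all lie under a minimum of 5 RPKM. CLTC ranged from 0.41 to 0.90, PICALM from 0.56 to 0.97, AP2B1 from 0.26 to 0.69, CLTB from -0.69 to -0.44 and AP2S1 from -0.50 to -0.25. CLTA lost its call in 11 alternatives and DNM2 in 6. AP2M1 turned positive with total reads (0.18) and with limma on log2(RPKM + 0.1) and log2(RPKM + 1) (0.17 in each), GAPDH turned to 0.014 in the same 3, and AP1S1 turned to 0.038 with the trends removed and 0.037 with the block added; the first 3 settings leave out the TMM factors. Total reads gave 9465 calls, 78.3% of them higher, against 8477 and 51.0%. A minimum of 5 RPKM tested 9085 features, called 4474 and left 2 of the clathrin route genes higher. Among 8832 named genes with a GC content, 4392 were called, 4269 with the trends removed and 5270 with the trends removed and the replicate block. Rows of the 10 genes called lower numbered 12 in the reported fit, 19 with the label series, 7 with total reads and 10 to 17 in the other alternatives, and the PICALM ratio was 0.76 without division by row length. The cause of these shifts was not tested. Leaving out each library gave 6803 to 8111 calls. Same-numbered libraries deviated together with correlations of 0.38, 0.12 and -0.020. Library 1 of each group correlated best with library 1 of the other group. For sh-luc library 2 the best was sh-IUR-5 library 3 (0.30), so the numbers 2 and 3 do not pair the libraries. The replicate block gave 10053 calls, with 4 of the 10 genes higher and 3 lower, and the label series in the model gave 10581 calls. DESeq2 gave 7158 calls. The 10 genes rested on at least 720 reads per library (AP2A2), and a limit from depth was not tested.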
